A study of Mus musculus with 61 samples.

Results

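The genes Fbxw15, Omt2b, Gm38025, Gm44087 and Mvp, which oocytes express, were followed across single cells of the mouse ovary. They are 5 of the 23927 gene rows measured. They were chosen by 2 measured differences: a level above that of control granulosa cells both in granulosa cells after doxorubicin and in control oocytes. Values in these 2 contrasts are therefore a description and were not tested. The question put to the data was how far the level in a granulosa library exceeded what its content of other oocyte transcripts would give.

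The ovaries came from wild-type CD-1 mice, an outbred stock, at postnatal day 5, and were taken 6 hours after an intraperitoneal injection. Controls received the solvent alone, and the treated mice received doxorubicin, a DNA-damaging agent used against cancer, at a dose labelled 10 mg/kb, a unit that leaves the dose uncertain. The table holds 16 control oocytes, 16 doxorubicin oocytes, 16 control granulosa cells and 13 doxorubicin granulosa cells, each sequenced as its own full-length library to between 6834594 and 31262629 counts. The labels name no animal, and a group therefore counts as 1 sample: no difference was tested, and 95% intervals cover counting error only.

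An oocyte grows inside a layer of granulosa cells and is joined to them by fine projections. It stores transcripts of genes that somatic cells rarely use, among them the zona pellucida genes and large families of F-box genes. Fbxw15 encodes an F-box protein with WD repeats, and F-box proteins are the subunits that bring substrates to SCF ubiquitin ligases. Omt2b is a small gene named for oocyte maturation, one of a pair with Omt2a. Mvp encodes the major vault protein, which forms the shell of the vault, a large cytoplasmic ribonucleoprotein particle. Gm38025 and Gm44087 are gene models without a known product.

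In GENCODE M21, on build GRCm38, Fbxw15 lies at chr9:109552602-109568262 on the minus strand and Omt2b at chr9:78327589-78329620 on the plus strand. Mvp lies at chr7:126986860-127014621 on the minus strand. All 3 are annotated as protein coding. Gm38025 is a lincRNA of 2 exons at chr3:31341012-31345280 on the plus strand, and no other gene overlaps it. Gm44087 is a single-exon model of the type TEC, which is set aside for experimental checks, at chr6:146376417-146378186 on the plus strand. It sits inside an intron of Itpr2, which is read from the opposite strand. Itpr2 was measured at 20.7 CPM (a count scaled to a common library total) in oocytes of control mice and 32.1 CPM in those of treated mice. It stood at 312 CPM in granulosa cells of controls and 242 CPM after doxorubicin. Whether strand was used in counting is not given in the sources used here, so reads of Gm44087 and of the Itpr2 intron cannot be told apart.

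The transcripts of Gm38025 and Gm44087, from chromosomes 3 and 6, turned out to be built mostly of one and the same stretch. A local alignment joined bases 3 to 1608 of the 2308 in Gm38025 to bases 1 to 1612 of the 1770 in Gm44087, with 1532 of 1612 aligned columns identical (95.0%). Within Gm38025 the first 117 bases recur without a mismatch at bases 1492 to 1608, so the stretch begins and ends with a direct repeat. The first 160 or so bases are shown for both genes and for Gm36958 and Gm45663, the 2 genes whose level across cells was most like theirs, because this shared sequence bears on every value given for the 2 models. They come from GENCODE M21 transcripts and lie at chr3:31341014-31341173 (+), chr6:146376417-146376577 (+), chr9:102766348-102766507 (-) and chr8:104152708-104152867 (+), and capitals mark bases that differ from Gm38025 or are inserted.
Gm38025: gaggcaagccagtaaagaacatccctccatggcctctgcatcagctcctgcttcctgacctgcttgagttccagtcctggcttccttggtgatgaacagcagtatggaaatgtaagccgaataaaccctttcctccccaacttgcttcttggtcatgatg
Gm44087: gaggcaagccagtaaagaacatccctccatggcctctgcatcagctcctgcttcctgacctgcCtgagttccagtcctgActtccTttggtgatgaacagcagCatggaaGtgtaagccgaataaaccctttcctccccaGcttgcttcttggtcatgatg
Gm36958: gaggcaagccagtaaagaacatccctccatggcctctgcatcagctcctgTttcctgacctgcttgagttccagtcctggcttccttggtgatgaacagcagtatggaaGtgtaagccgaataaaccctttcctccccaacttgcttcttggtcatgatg
Gm45663: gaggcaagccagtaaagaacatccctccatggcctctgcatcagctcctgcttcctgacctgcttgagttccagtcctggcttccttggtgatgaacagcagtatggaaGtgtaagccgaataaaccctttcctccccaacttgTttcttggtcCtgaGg
The window holds 6 such bases in Gm44087, 2 in Gm36958 and 4 in Gm45663.

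The promoters of the other 3 genes, the 250 bases before the annotated start in RefSeq (build GRCm38.p6), are shown because these genes were chosen for moving together. Oocyte transcription factors such as FIGLA and SOHLH1 bind E-boxes (CANNTG) and NOBOX binds TAATTG, and both are in capitals. The windows are chr9:109568263-109568512 (-), chr9:78327780-78328029 (+) and chr7:127014595-127014844 (-).
Fbxw15: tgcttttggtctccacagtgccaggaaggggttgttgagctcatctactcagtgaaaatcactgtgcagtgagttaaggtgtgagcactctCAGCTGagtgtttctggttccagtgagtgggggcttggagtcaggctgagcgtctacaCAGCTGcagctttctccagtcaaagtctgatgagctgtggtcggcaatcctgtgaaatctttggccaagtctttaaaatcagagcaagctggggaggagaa
Omt2b: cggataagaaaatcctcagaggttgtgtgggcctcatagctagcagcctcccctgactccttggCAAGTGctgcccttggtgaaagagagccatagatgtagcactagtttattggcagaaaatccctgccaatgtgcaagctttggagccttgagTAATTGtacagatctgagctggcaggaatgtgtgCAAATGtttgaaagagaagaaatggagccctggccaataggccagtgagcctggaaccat
Mvp: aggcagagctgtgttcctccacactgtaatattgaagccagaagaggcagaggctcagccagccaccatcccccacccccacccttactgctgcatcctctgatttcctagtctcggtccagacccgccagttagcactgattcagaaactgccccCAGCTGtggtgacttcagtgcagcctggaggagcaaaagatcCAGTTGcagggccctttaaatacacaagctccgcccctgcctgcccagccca
Searched on both strands, each promoter holds 2 E-boxes, a motif present in 66.2% of 32851 promoters of the same length. Only the promoter of Omt2b among the 3 holds TAATTG, found in 7.17% of promoters, with its first base 94 bases before the start. TTTAAA, in 12.1% of promoters, begins 30 bases before the start of Fbxw15 and 38 bases before that of Mvp, while the promoter of Omt2b has 3 matches to CCAAT, found in 33.8%. A p53 half-site, found in 7.13% of promoters, matched none of the 3. By the GENCODE M21 spans given above, the Omt2b window lies wholly inside its gene and the Mvp window in part. Positions before the start therefore hold for the RefSeq start only. A match here is a description of letters and not a binding site.

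Many libraries labelled granulosa held oocyte transcripts. A panel of 20 oocyte markers, which holds none of the 5 genes, summed to a median of 53497 CPM in control oocytes and 37011 CPM in doxorubicin oocytes. In control granulosa cells the sum ran from 528 to 17194 CPM with a median of 1936. In doxorubicin granulosa cells it ran from 501 to 45186 CPM with a median of 10860. It was above the sum of 20 granulosa markers in 8 of 13 doxorubicin granulosa libraries and 4 of 16 control ones, which thus go against their label. Granulosa markers were present in all of them, with at least 746 CPM in control and at least 1584 CPM in doxorubicin granulosa libraries. A panel of 8 stroma markers had a median of 815 CPM over control and 688 CPM over doxorubicin granulosa libraries. It reached 13316 CPM in control granulosa cell 13 and 7961 CPM in doxorubicin granulosa cell 13. Blood and immune markers reached 33378 CPM in doxorubicin granulosa cell 15 and their median over the doxorubicin granulosa libraries was 52.1 CPM. Fewer cells of a type in a library and less RNA per cell cannot be told apart in such sums.

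The 5 genes were present in nearly all oocytes. Fbxw15 ranged from 24.9 to 128 CPM over the control oocytes, with a median of 69.8, and from 0 to 238 CPM with a median of 41.0 over the doxorubicin oocytes. Omt2b ranged from 2.03 to 35.9 CPM with a median of 15.1 in control oocytes and from 3.43 to 32.3 CPM with a median of 17.5 after doxorubicin. Mvp was the most abundant, from 304 to 948 CPM with a median of 530 in control oocytes and from 315 to 873 CPM with a median of 528 after doxorubicin. For Omt2b and Mvp no doxorubicin oocyte lay outside the range of the controls, while for Fbxw15 2 lay above it and 5 below.

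Gm38025 ranged from 1.59 to 52.6 CPM with a median of 24.97 in control oocytes and from 4.40 to 42.1 CPM with a median of 11.9 in doxorubicin oocytes. Gm44087 ranged from 0.16 to 152 CPM with a median of 36.7 in control oocytes and from 0 to 54.6 CPM with a median of 10.5 after doxorubicin. Both gene models stood lower in the doxorubicin oocytes, with the groups overlapping. No doxorubicin oocyte lay outside the range of the controls for Gm38025, and for Gm44087 1 lay below it and none above. Doxorubicin oocytes 9, 11 and 12 held 3955, 3299 and 2596 CPM of granulosa markers, against at most 1358 CPM in a control oocyte, and Gm44087 at 1.12, 0 and 0.54 CPM. Without these 3, an alternative chosen after seeing the data, the log2 difference of doxorubicin from control oocytes was -0.92 for Gm44087 and -0.64 for Gm38025, in place of -1.17 and -0.73. Over the 16 doxorubicin oocytes the level had a Pearson r with the oocyte marker sum of 0.82 for Gm44087 and 0.69 for Gm38025, and the part of that sum in the difference was not tested. These levels are scaled to the library total and not to length, so they do not order the genes among themselves.

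This contrast between oocyte groups was not used to choose the genes. On the log2 scale of group CPM the difference of doxorubicin from control oocytes was -0.73 (95% interval -0.79 to -0.66) for Gm38025 and -1.17 (-1.23 to -1.11) for Gm44087. It was -0.04 (-0.08 to -0.01) for Fbxw15, 0.01 (-0.06 to 0.08) for Omt2b and -0.04 (-0.05 to -0.03) for Mvp. At a 2-fold limit, 1 of the 5 genes, Gm44087, was lower and none was higher. Over all genes with at least 5 CPM in either oocyte group, 2.45% were at least 2-fold lower and 6.3% at least 2-fold higher. The median over the cells of Fbxw15 differed more than its group level, by -0.75 on the log2(CPM + 1) scale, and doxorubicin oocyte 3 alone held 21.3% of the counts of its group.

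In control granulosa cells the 5 genes were at 0 or near it in most libraries. At least 5 reads were found in 3 of 16 libraries for Fbxw15, 2 for Omt2b, 3 for Gm38025, 4 for Gm44087 and 4 for Mvp. The highest values were 11.8 CPM for Fbxw15 in cell 13, 16.1 CPM for Omt2b in cell 11, 7.21 CPM for Gm38025 in cell 6, 9.37 CPM for Gm44087 in cell 4 and 116 CPM for Mvp in cell 15. Each highest value came from a different cell. The highest cell supplied between 50.2% and 76.9% of its group's counts for each gene.

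In doxorubicin granulosa cells at least 5 reads were found in 10 of 13 libraries for Fbxw15, 10 for Omt2b, 11 for Gm38025, 10 for Gm44087 and 12 for Mvp. All 5 genes reached 5 reads in 7 of the 13 libraries, and in none of the 16 control granulosa libraries. After every library was thinned to 6000000 counts, the libraries with at least 5 reads numbered 10, 10, 10, 9 and 10 of 13 in the same gene order, against 3, 2, 3, 4 and 3 of 16 controls. Depth at this level therefore altered these counts by at most 2 libraries.

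Fbxw15 was measured at 366 CPM in doxorubicin granulosa cell 9, 283 in cell 1, 276 in cell 7 and 178 in cell 8. It was at 66.7 CPM in cell 6, 57.9 in cell 16, 55.9 in cell 10, 53.8 in cell 2, 19.8 in cell 4 and 11.01 in cell 13. It was at 0.10 CPM in cell 15 and at 0 in cells 12 and 14. Cells 9, 1 and 7 stood above all 32 oocytes, and 9 of 13 stood above every control granulosa cell.

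Omt2b was measured at 220 CPM in cell 1, 161 in cell 12, 157 in cell 6, 71.2 in cell 10, 66.2 in cell 7, 56.1 in cell 9 and 50.8 in cell 8. It was at 9.09 CPM in cell 14, 8.90 in cell 16 and 1.48 in cell 4, and at 0 in cells 2, 13 and 15. The libraries fell into 7 at or above 50.8 CPM and 6 at or below 9.09 CPM. All 7 of the higher ones were above every oocyte, the highest of which held 35.9 CPM.

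Gm38025 was measured at 373 CPM in cell 4, 316 in cell 1, 285 in cell 6, 201 in cell 9, 88.3 in cell 10, 86.7 in cell 7 and 62.7 in cell 8. It was at 37.5 CPM in cell 2, 36.7 in cell 12, 7.59 in cell 16 and 1.14 in cell 15, and at 0 in cells 13 and 14. The 7 highest libraries were above every oocyte, and 10 of 13 were above every control granulosa cell.

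Gm44087 was measured at 379 CPM in cell 4, 362 in cell 1, 135 in cell 12, 95.6 in cell 2, 92.2 in cell 7, 82.9 in cell 10 and 61.5 in cell 8. It was at 12.9 CPM in cell 6, 1.26 in cell 9, 0.65 in cell 14 and 0.10 in cell 15, and at 0 in cells 13 and 16. Cells 4 and 1 held more than any oocyte. Cells 6 and 9, high in Gm38025, were low in Gm44087.

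Mvp was measured at 1167 CPM in cell 4, 724 in cell 7, 397 in cell 12, 214 in cell 6, 201 in cell 10 and 133 in cell 8. It was at 80.4 CPM in cell 16, 42.0 in cell 13, 28.2 in cell 2 and 1.35 in cell 1, and below 1 CPM in cells 9, 14 and 15. Mvp was the 1 gene of the 5 for which most libraries stayed below all the oocytes: cell 4 alone was above the highest oocyte. Cell 1, with the most oocyte marker transcripts and among the highest for the other 4 genes, held almost none of it.

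**Figure D1:**
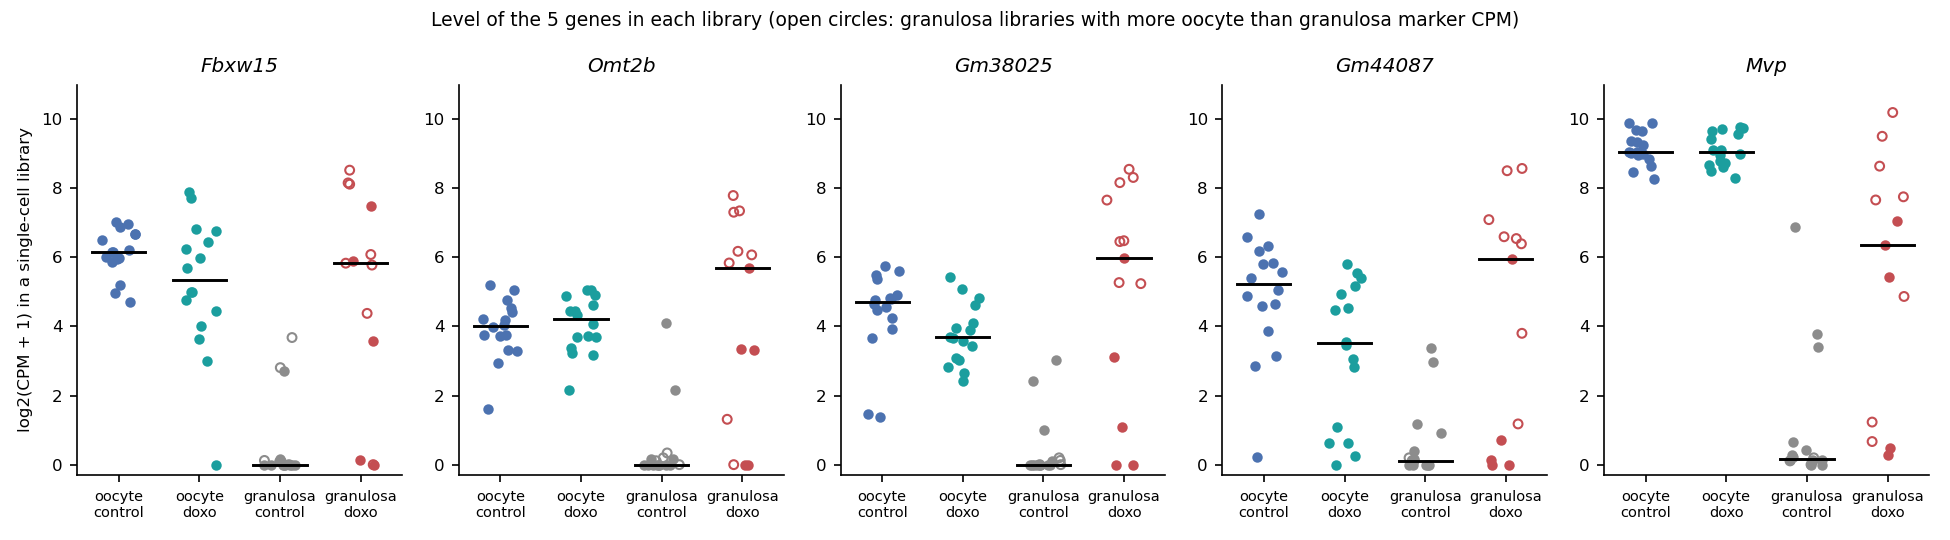
Level of each gene in each library as log2(CPM + 1), in 4 groups of 16, 16, 16 and 13 single cells; a line marks the median over the cells, and open circles mark the granulosa libraries in which the oocyte marker sum is above the granulosa marker sum. Control granulosa libraries lie near 0, and doxorubicin granulosa libraries spread from 0 to values at or above the oocytes, with open circles mostly at the top.

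Summed over the groups, the level in doxorubicin granulosa cells against that in control granulosa cells was 107 against 1.43 CPM for Fbxw15, 58.2 against 1.26 for Omt2b, 115 against 0.81 for Gm38025, 92.3 against 1.196 for Gm44087 and 236 against 6.92 for Mvp. The log2 differences ran from 5.09 for Mvp to 7.15 for Gm38025, with a median of 6.23. This contrast and that of the oocytes chose the genes: all 5 were at least 2-fold higher in both, against 20.6% of all genes tested in the granulosa contrast, 29% in the contrast of control oocytes with control granulosa cells, and 11.2% in both, and nothing is read from this. The median of all genes tested in the granulosa contrast was -0.03.

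With only the 5 doxorubicin and 12 control granulosa libraries in which the library's own markers exceeded the oocyte markers, the median log2 difference of the 5 genes was 3.22 in place of 6.23. It was 6.69 for Fbxw15, 3.22 for Omt2b, 3.92 for Gm38025, 3.20 for Gm44087 and 2.57 for Mvp. Among those 5 doxorubicin libraries, cell 8 held all 5 genes at 50.8 CPM or more, cell 16 held 4 of them at 7.59 CPM or more, and cell 13 held Fbxw15 and Mvp alone. Cell 14 held Omt2b at 9.09 CPM and the others below 1 CPM, and cell 15 held none above 1.14 CPM. Of the libraries kept here, doxorubicin cell 13 held more stroma than granulosa marker CPM (7961 against 2802). So did control cell 2 (8342 against 746).

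The oocyte share of a granulosa library was then taken as its oocyte marker sum over that of the oocytes of the same treatment, and the level expected of a gene as that share of its oocyte level. The share was 6.11% in control and 34.8% in doxorubicin granulosa cells as groups. Over the control libraries it ran from 1.04% to 33.95% with a median of 3.82%, and over the doxorubicin libraries from 1.23% to 110% with a median of 26.5%.

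In doxorubicin granulosa cells Gm38025 was expected at 5.37 CPM and measured at 115 CPM, 21.5 times that. Gm44087 was expected at 6.70 CPM and was 13.8 times higher, Omt2b was expected at 6.25 CPM and was 9.32 times higher, and Fbxw15 was expected at 24.9 CPM and was 4.31 times higher. Mvp was expected at 202 CPM and measured at 236 CPM, a ratio of 1.17. The 4 genes with a large excess were also above the full level of the doxorubicin oocytes, at 150% of it for Fbxw15, 325% for Omt2b, 749% for Gm38025 and 480% for Gm44087. Mvp stood at 40.7% of the oocyte level. With the single highest oocyte as the reference in place of the group, an alternative chosen after seeing the data, the log2 of measured over expected level was 2.66 for Gm38025, 2.22 for Omt2b, 0.80 for Gm44087, 0.37 for Fbxw15 and -0.48 for Mvp. Gm44087 and Fbxw15 were then under 2-fold. The genes were chosen for their level in these same doxorubicin granulosa libraries, so the size of the excess is a description.

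In control granulosa cells the measured level was 1.16 times the expected one for Omt2b, 0.52 times for Gm38025, 0.45 times for Gm44087, 0.32 times for Fbxw15 and 0.19 times for Mvp. None of the 5 was more than 2-fold above its expected level there, and none of the 845 genes set out for comparison was either (0%). All 5 are among those 845 genes, which had at least 10 CPM in control oocytes. Their level there was at least 10 times that in control granulosa cells. With a share of 6.11%, this limit keeps each such gene under 2-fold by arithmetic. Both counts were thus fixed in advance, and nothing is read from them.

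Libraries of similar share are given side by side. Control granulosa cell 8 had an oocyte share of 33.95% with 17194 CPM of oocyte markers, yet held 0.09 CPM of Fbxw15, 0.26 of Omt2b, 0.09 of Gm38025, 0.09 of Gm44087 and 0 of Mvp. Doxorubicin granulosa cell 7, at a share of 35.2%, held 276, 66.2, 86.7, 92.2 and 724 CPM of the same genes. Control granulosa cell 14, at a share of 18.8%, held 6.00 CPM of Fbxw15 and 0.15 CPM of each of the other 4. Doxorubicin granulosa cell 8, at 13.03%, held at least 50.8 CPM of each. Doxorubicin granulosa cell 2, at 14.87%, held 53.8 CPM of Fbxw15, 0 of Omt2b, 37.5 of Gm38025, 95.6 of Gm44087 and 28.2 of Mvp. Control granulosa cells 8 and 14 held 8404 and 4844 CPM of stroma markers, against 3071 and 3497 CPM of granulosa markers. Doxorubicin granulosa cells 7, 8 and 2 held 813, 1543 and 461 CPM of stroma markers. Their granulosa markers stood at 12691, 13533 and 4583 CPM. The libraries thus differ in cell character too, and the part of this in the values was not tested. These libraries were picked for their share after the values were seen.

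Library by library, the measured level was at least 2-fold over the expected one in 10 of 13 doxorubicin granulosa libraries for Gm38025, 9 for Omt2b, 7 for Fbxw15, 7 for Gm44087 and 4 for Mvp. In control granulosa libraries this held in 2 of 16 for Gm38025, Omt2b and Gm44087, 1 for Mvp and none for Fbxw15. The largest ratio in a doxorubicin library was 49.1, for Gm38025 in cell 9. Among the controls it was 22.7, for Omt2b in cell 11. The genes were chosen for being higher in the doxorubicin than in the control granulosa libraries, and libraries are not replicates. These counts are therefore a description, and nothing is read from their difference.

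**Figure D2:**
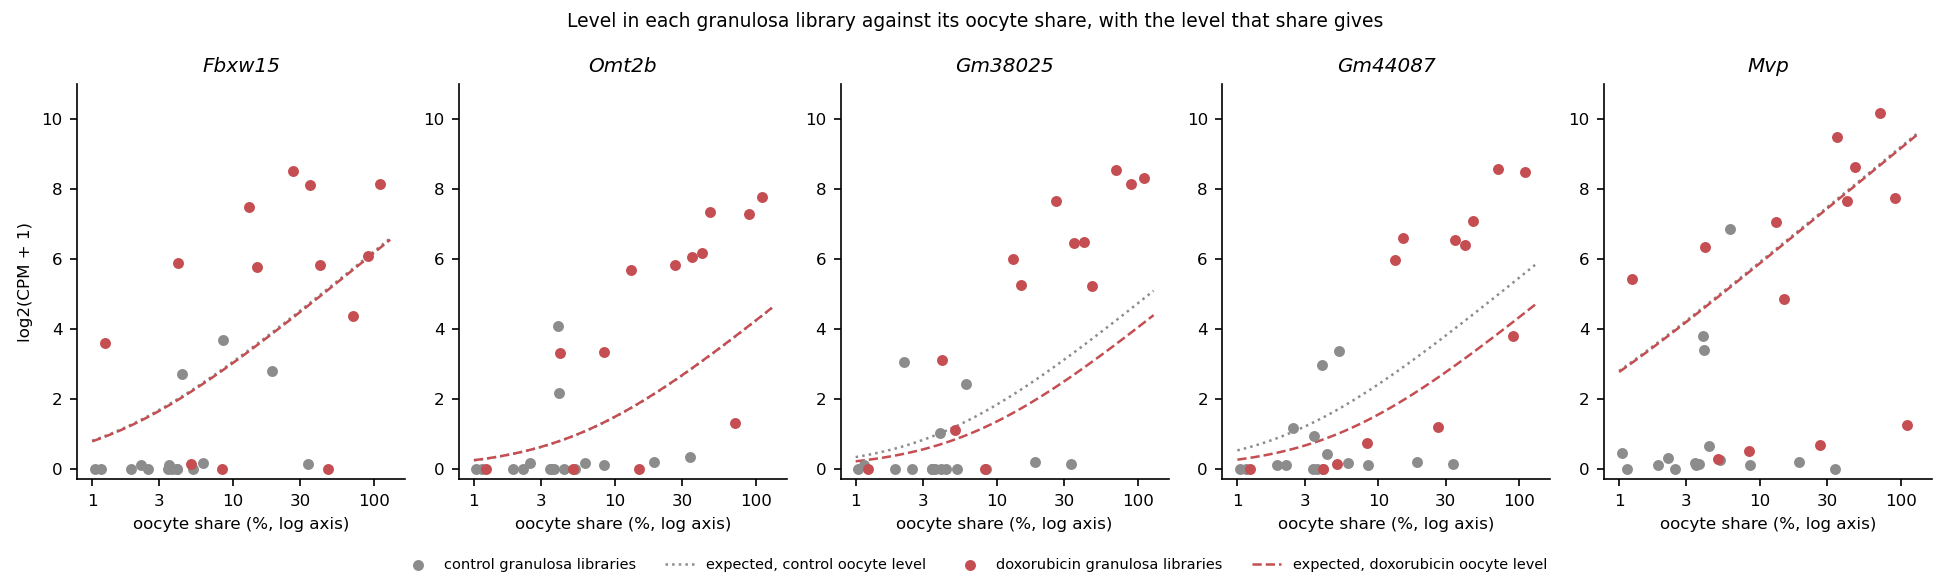
Level of each gene as log2(CPM + 1) in each granulosa library against the oocyte share of that library in percent on a log axis; points are libraries, and lines give the level expected from the share, dotted for control and dashed for doxorubicin oocytes. Of 13 red points, 11 of Gm38025, 9 of Omt2b, 9 of Fbxw15, 7 of Gm44087 and 6 of Mvp lie above the dashed line, and the grey point at 33.95% lies at the bottom in every panel.

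Across the 13 doxorubicin granulosa libraries the level on the log2(CPM + 1) scale went with the oocyte marker sum most closely for Gm38025, with a Pearson r of 0.88. It was 0.77 for Gm44087, 0.69 for Omt2b, 0.35 for Fbxw15 and 0.29 for Mvp. Without the 2 libraries farthest from the median marker sum it was 0.85, 0.67, 0.62, 0.45 and 0.49 in the same order. Across the 16 control granulosa libraries r was between -0.04 for Gm38025 and 0.44 for Fbxw15. The points are libraries of unknown animals that share 1 batch label, so these are descriptions with no p.

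The markers themselves did not keep the proportions of the collected oocytes. In doxorubicin granulosa cells the log2 of measured over expected ran from -7.15 for Ddx4 to 4.48 for Oosp1 over the 20 markers, with a median of 0.13 and quartiles of -1.53 and 1.42. Of the 20, 7 were at least 2-fold over and 7 at least 2-fold under their expected level, and 5 were above the oocyte level. The 5 genes had values of 4.43 (Gm38025), 3.78 (Gm44087), 3.22 (Omt2b), 2.11 (Fbxw15) and 0.23 (Mvp), with a median of 3.22. All of these values lie inside the range of the markers, but Oosp1 was the only marker above Gm38025 and Gm44087. Oosp1 was scarce in doxorubicin oocytes, at 3.85 CPM, and the next highest marker was Khdc3 at 3.45. In control granulosa cells the markers ran from -6.65 for Bmp15 to 2.37 for Ooep. What gives a library this makeup was not tested.

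**Figure D3:**
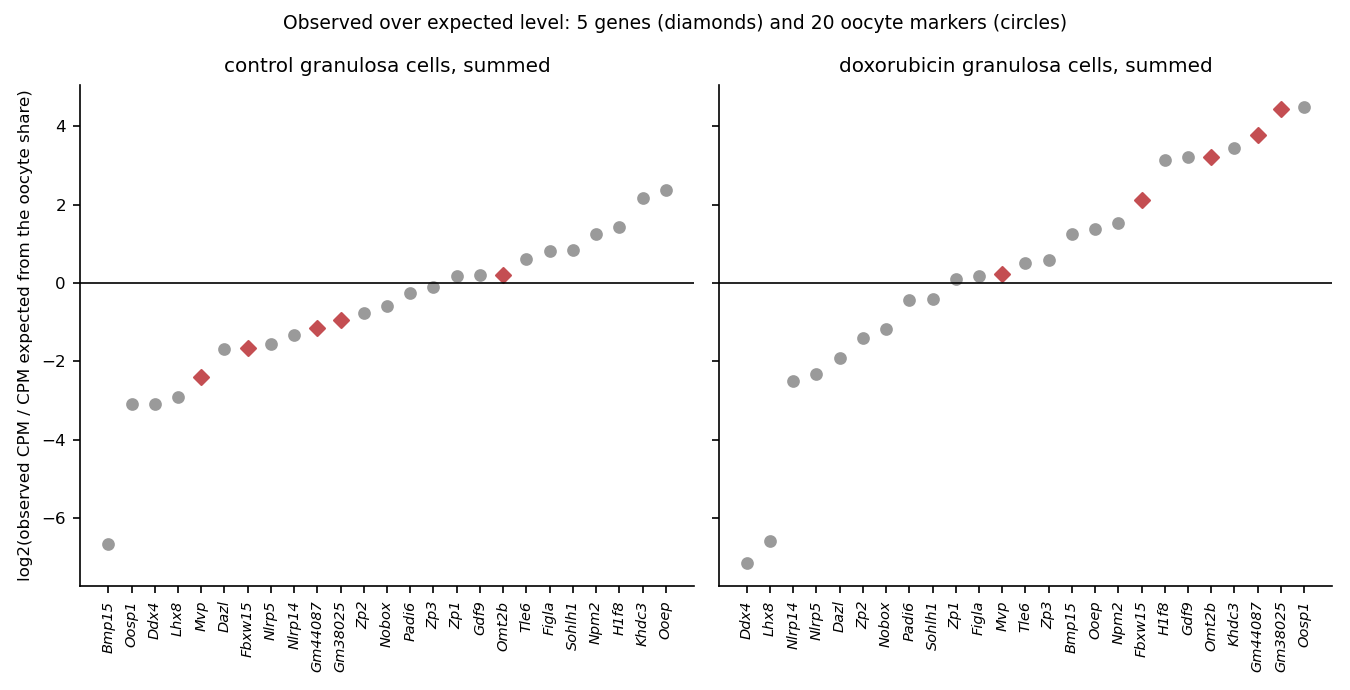
Log2 of the measured over the expected group level for the 5 genes (diamonds) and the 20 oocyte markers (circles), in control granulosa cells on the left and doxorubicin granulosa cells on the right, each ordered from lowest to highest. On the right 4 diamonds lie between 2.11 and 4.43, beside H1f8, Gdf9, Khdc3 and Oosp1, and Mvp lies at 0.23.

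Set against the 845 genes higher in oocytes, Gm38025 had the highest ratio of measured to expected level in doxorubicin granulosa cells, Gm44087 the 4th highest, Omt2b the 12th, Fbxw15 the 49th and Mvp the 245th. The median of the 845 genes was -0.97 on the log2 scale, and 16% of them were at least 2-fold over the expected level, against 4 of the 5 genes. The 5 were chosen for their level in these same doxorubicin granulosa libraries, so their places and this count are a description and nothing is read from them. A stricter set of 190 genes, with at least 100 CPM and 5 reads in every control oocyte, held Mvp alone of the 5, in 39th place, with a median of -0.82 and 4.74% of genes at least 2-fold over. Its highest were Gdf9, a growth factor secreted by oocytes, at 3.21, Polrmt, the mitochondrial RNA polymerase, at 2.27, the F-box gene Fbxw24 at 2.21, the kinase gene Tyk2 at 1.87 and Tspan33 at 1.54. Its lowest were Marveld2 at -8.44, Nlrp4f at -8.31, Pls1 at -8.22, Stk31 at -8.20 and the germ cell helicase gene Ddx4 at -7.15. The oocyte-type transcripts of these libraries were thus unevenly represented, in both directions.

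The stretch shared by Gm38025 and Gm44087 was looked for in all GENCODE M21 transcripts. On the same strand, over at least 1000 aligned bases and with at least 85% identity, it was found in 27 genes, of which 24 are in the count table, 22 of them besides the 2 genes themselves. Of these 22 genes, 13 had at least 5 CPM in either granulosa group. All 13 were at least 2-fold higher in doxorubicin granulosa cells, against 20.6% of all genes, with a median log2 difference of 4.30 and a range from 1.61 to 10.48. Genes near 0 in control granulosa cells, such as Gm42553 at 0.01 CPM and Gm45663 at 0.98 CPM, could reach 5 CPM only through the doxorubicin group. They were then at least 2-fold higher by arithmetic. The count was thus fixed in part by this limit, and nothing is read from it. The list was made by sequence, after the values of Gm38025 and Gm44087 were known, and was given no test.

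Gm37110 was measured at 204 CPM in doxorubicin and 12.9 CPM in control granulosa cells, Gm45410 at 92.7 and 3.38, Gm45663 at 47.0 and 0.98, Gm44183 at 32.9 and 1.84, and Gm42553 at 23.9 and 0.01. In control oocytes the same 5 stood at 128, 43.8, 22.6, 19.2 and 0.63 CPM, and in doxorubicin oocytes at 73.2, 24.5, 12.3, 11.4 and 0.48 CPM. They were thus lower after doxorubicin in oocytes, as Gm38025 and Gm44087 were. These 5 were picked after the values were seen, and others of the list stayed below the control oocytes. In doxorubicin granulosa cells Hexdc was at 160 CPM, Gm43042 at 28.9 and Gm36976 at 21.6, against 421, 52.2 and 46.9 CPM in control oocytes. Of the 13 such genes with at least 5 CPM in either oocyte group, all were below their control level after doxorubicin. Their log2 differences ran from -1.30 to -0.53, against a median of 0.01 over all genes in this contrast. At least 2-fold lower were 4 of them, against 2.45% of all genes. Copies this alike can share reads, so they are not separate measurements.

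When the stretch made up at least 50% of the transcript, 11 genes besides the 2 remained. Their summed group level was 332 CPM in oocytes of controls and 183 CPM after doxorubicin. In granulosa cells it was 27.1 CPM in controls and 489 CPM after doxorubicin. Over single cells the sum ran from 131 to 479 CPM in control oocytes with a median of 347 and from 40.0 to 296 CPM in doxorubicin oocytes with a median of 183. It ran from 0 to 144 CPM with a median of 18.2 in control granulosa cells, and from 2.35 to 1841 CPM with a median of 276 in doxorubicin granulosa cells. In 9 of the 13 doxorubicin granulosa libraries it was above every control granulosa library, and in 5 it was above every oocyte. Against the oocyte share the sum was 7.68 times the expected level in doxorubicin and 1.34 times in control granulosa cells.

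The granulosa libraries whose own markers were higher gave a smaller count: 7 of the 22 genes reached 5 CPM and 5 of them were at least 2-fold higher, with a median of 1.66, against 19.4% of all genes. A shorter stretch, of at least 300 bases, was found in 68 genes of the table besides the 2, and of the 42 with 5 CPM 21 were higher and 5 lower, against 20.6% and 20% over all genes. On the opposite strand, 6 genes with at least 1000 bases passed 5 CPM, 4 of them higher and none at least 2-fold lower, against the same shares. The limit of 5 CPM bears on all these counts in the same way, and nothing is read from them. Reads from copies this alike can be shared among them. Values that were not whole numbers, which an estimate that splits reads gives, stood in 41 of the 50 cells with Gm38025 above 0, in 36 of 50 for Gm36958 and 53 of 55 for Gm37110, but in 3 of 53 for Gm44087 and 3 of 51 for Gm45663. The genes of this list are therefore not separate measurements.

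**Figure D4:**
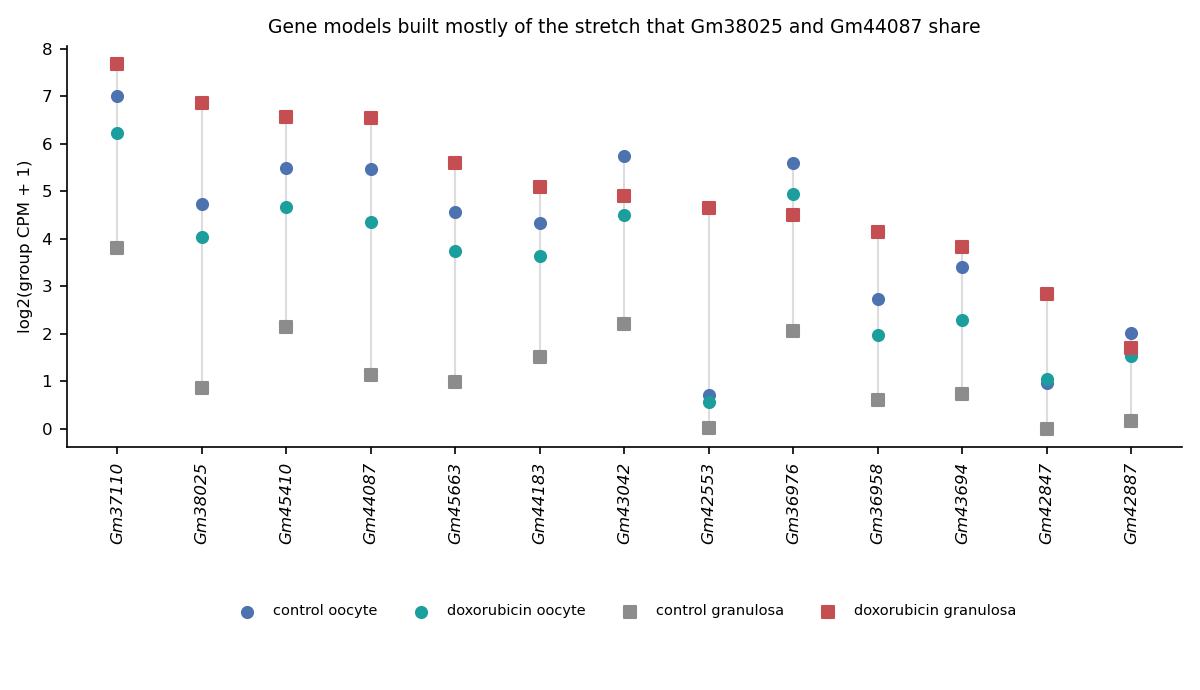
Group level, as log2(CPM + 1), of the 13 gene models in the count table of which the shared stretch makes up at least 50%, Gm38025 and Gm44087 included; circles are oocyte groups and squares granulosa groups. The red squares of doxorubicin granulosa cells lie above the grey squares of control granulosa cells for each gene.

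Fbxw15 belongs to a family of closely related F-box genes, and its relatives were read from a list of 15. Of these, 13 had at least 5 CPM in either granulosa group, 12 were at least 2-fold higher in doxorubicin granulosa cells and none was at least 2-fold lower. The median log2 difference was 7.25. The list, these counts and the median include Fbxw15 itself, which was chosen by this contrast. Over all genes 20.6% were higher and 20% lower. Relatives near 0 in control granulosa cells could reach 5 CPM only through the doxorubicin group, and were then higher by arithmetic. The count was thus fixed in part by this limit, and nothing is read from it. Fbxw24 was at 128 CPM in doxorubicin and 10.3 CPM in control granulosa cells, Fbxw18 at 70.2 and 3.904, Fbxw27 at 51.1 and 1.77, and Fbxw13 at 41.7 and 0.04. Fbxw14 and Fbxw28 had no read in any control granulosa cell and stood at 17.3 and 18.5 CPM after doxorubicin. Each was above 0 in only 16 cells of all groups, with a value that was not whole in 11 of the 16, so reads may be shared. Fbxw17 was the exception, at 118 CPM in doxorubicin and 146 CPM in control granulosa cells, a level above its 36.6 CPM in control oocytes. Its best alignment to Fbxw15 covered only 122 columns, 68.9% of them identical, so by sequence it is no close relative.

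Several of these relatives were scarce in the oocytes. Fbxw13 was at 0.97 CPM in control oocytes and 2.49 CPM in treated ones, Fbxw20 at 0.37 and 0.60, and Fbxw16 at 0.73 and 1.505, and each was higher in doxorubicin granulosa cells, at 41.7, 7.49 and 7.62 CPM. Fbxw18 and Fbxw26, at 164 and 89.7 CPM in control oocytes, were by contrast lower in doxorubicin granulosa cells than in either oocyte group. None of the 7 listed genes with at least 5 CPM in oocytes differed 2-fold between the oocyte groups. The best transcript pairs were 89.2% identical to Fbxw15 for Fbxw25 and 88.1% for Fbxw27, while Fbxw15 itself had a value that was not whole in 4 of 49 cells. The core SCF subunits and regulators on a list of 6 were within 2-fold in the granulosa contrast, all of them. Of 9 other Fbxw genes, which many tissues use, 5 of the 8 with at least 5 CPM were at least 2-fold higher and none lower, against 20.6% and 20% over all genes.

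Omt2a, the neighbour of Omt2b, was measured at 45.3 CPM in doxorubicin and 0.80 CPM in control granulosa cells, and in oocytes at 4.33 CPM in controls and 3.42 CPM after doxorubicin. Its log2 ratio of measured to expected level was 5.25, against 3.22 for Omt2b. The best transcript pair of both genes was 89.4% identical over 739 columns, and 36 of the 50 cells above 0 for Omt2b and 36 of the 41 for Omt2a had values that were not whole. How reads were divided between the 2 genes therefore bears on both levels. For the vault, the minor proteins Parp4 and Tep1 stood closer together in the granulosa groups than Mvp did. Parp4, a vault ADP-ribosyltransferase, was at 19.7 CPM in doxorubicin and 8.54 CPM in control granulosa cells, and Tep1, a telomerase-associated vault protein, at 38.8 and 60.0 CPM.

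**Figure D5:**
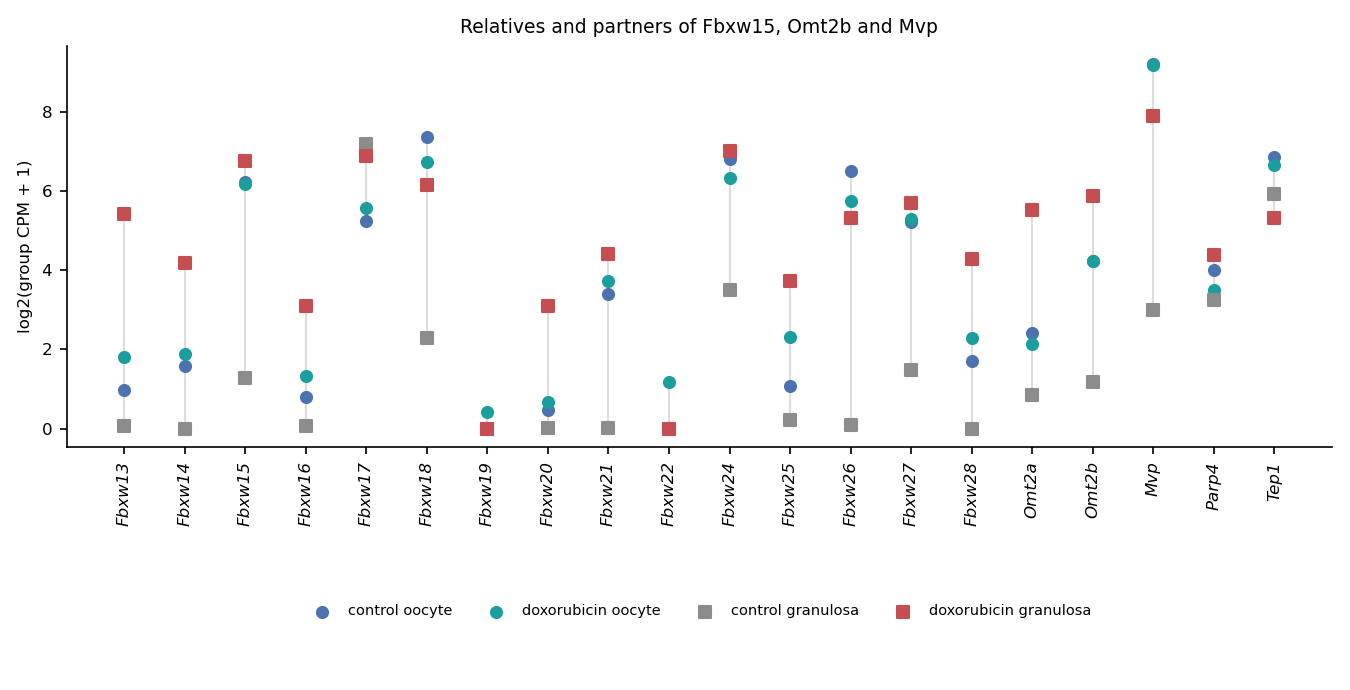
Group level, as log2(CPM + 1), of the 15 listed Fbxw genes, the 2 Omt2 genes and the 3 vault genes. Circles are oocyte groups and squares granulosa groups. For Fbxw13, Fbxw14, Fbxw28 and Omt2a the red square of doxorubicin granulosa cells lies well above both oocyte circles, and for Mvp it lies below them.

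The genes most like each of the 5, by Pearson r of log2(CPM + 1) over all 61 cells among 13250 genes, were named by a rule of the 3 highest. For Gm38025 they were Gm36958 (0.93), Gm45663 (0.86) and Gm45410 (0.85), and for Gm44087 the same 3 genes, at 0.80, 0.79 and 0.77. All 3 hold the shared stretch. For Omt2b they were Npm2 (0.75), Astl (0.75) and Olfr624 (0.74), the last of which also has a transcript with the stretch. For Fbxw15 they were Mef2b (0.79), Gm14820 (0.78) and Actr8 (0.73), and for Mvp Gmds (0.90), Slc6a9 (0.89) and Bbs4 (0.87). Of the oocyte markers Zp1 was the most like all 5, with r between 0.50 for Gm38025 and 0.72 for Mvp. The cells fall into separate groups, which alone gives high values of r.

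Cdkn1a, a p53 target that is no oocyte-type gene, was read beside them as a measure of the drug response. It was at 1161 CPM in doxorubicin and 13.5 CPM in control granulosa cells, and at 130 CPM in doxorubicin and 15.7 CPM in control oocytes. It exceeded every control granulosa cell in 11 of 13 doxorubicin granulosa libraries. The other 2 were cells 1 and 4, at 7.89 and 0.58 CPM, which held the highest Gm44087, at 362 and 379 CPM, and the highest Gm38025, at 316 and 373 CPM. Across those 13 its level had a Pearson r of -0.31 with the oocyte marker sum, and -0.45 without the 2 libraries farthest from the median sum. Of the 20 p53 targets listed, 16 were at least 2-fold higher in doxorubicin granulosa cells and none lower, against 20.6% higher over all genes. In doxorubicin oocytes 12 of 17 were higher, against 6.3%. The 5 genes differed from Cdkn1a in the oocytes, where none of them was 2-fold higher after the drug.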

How the data were processed

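Single oocytes and granulosa cells were lysed, and mRNA was copied to cDNA, amplified and made into full-length paired-end libraries, per the labels' protocols. All cells carry the same batch label. The deposited table holds the authors' estimated counts by gene and cell, and 34.0% of its values above 0 have a fractional part. Build mm10 and the tools Partek, Bowtie2, HISAT2 and DESeq2 are named in the submitters' processing notes, with no role, order or version. The counting tool, its annotation and its use of strand are not given in the sources used here. Doxorubicin oocyte 4, whose raw data the series text gives as lost, was used from its column of the table. Rows named by a spreadsheet date (22, with 0.144% of the counts) stayed in the totals and were not named.

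The 5 genes, the marker panels and the other lists were chosen with earlier results of these data known. The expected counts were rounded and summed over the cells of a group, and group CPM is the sum scaled to a fixed total over all gene rows. A group under 3 counts was set to 3 in a ratio. Intervals are exact binomial (Clopper-Pearson) or exact Poisson, at 95%. PCR copies were not marked by molecular identifiers, so reads are not independent molecules and intervals cover counting error only. Each group is 1 sample, because no animal is named and cells are not replicates, so no test was run. A gene was counted in a comparison at 5 CPM or more in either group and called at a 2-fold difference. Detection means at least 5 reads.

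Named genes are the 5, the genes of the Fbxw, Omt2 and vault lists, the 3 genes most like each of the 5, the 5 highest and 5 lowest of 190 oocyte-enriched genes, the extreme markers, and Cdkn1a. The genes with the shared stretch and their values were picked afterwards. H1f8 stands in the table for the marker H1foo, and Adgre1 was not analysed here. The calculation of the oocyte share was run on simulated mixtures of an oocyte and a granulosa profile. There the markers kept their oocyte proportions, which they did not in these libraries. The simulation thus checks the arithmetic and not the expected levels. Positions and transcripts are those of GENCODE M21 (GRCm38, the same build as mm10), and promoters those of RefSeq GRCm38.p6, which gave 3 of the 5 genes. The stretch of Gm38025 was sought by 21-base words, with at least 10 shared, and aligned locally (match 2, mismatch -3, gap opening -6, gap extension -2).

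Alternatives were edgeR TMM factors, DESeq2 size factors, an equal-weight mean of the cells, the cells' medians on log2(CPM + 1), no filter on low genes, other measures of the oocyte share, granulosa libraries with their own markers higher, and leaving out each cell. Python 3.11.15, numpy 2.4.6, pandas 2.3.3, scipy 1.17.1, matplotlib 3.10.9, R 4.3.3, edgeR 4.0.16 and DESeq2 1.42.0 were used.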

Additional observations from a re-analysis of the deposited data

Results flagged for a closer look

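Gm38025 and Gm44087 differed from control in opposite directions in the 2 cell types. The log2 difference of doxorubicin from control was 7.15 in granulosa cells and -0.73 in oocytes for Gm38025, a gap of 7.88. It was 6.27 in granulosa cells and -1.17 in oocytes for Gm44087, a gap of 7.44. The direction in oocytes lay outside counting error and was kept when any 1 cell was left out. That in granulosa cells was set by the choice of the genes, so nothing is read from it. In 8 of 13 doxorubicin granulosa libraries the oocyte markers exceeded the granulosa markers. With own markers higher, the granulosa difference was 3.92 for Gm38025 and 3.20 for Gm44087. The 2 genes share a stretch and can share reads, so they are not separate measurements. The difference between the cell types was not tested, since each group is 1 sample, and the granulosa contrast had chosen the genes.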

How the results depend on the processing

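No paired analysis was possible because no test was run and the cell numbers only name cells. The median log2 difference of the 5 genes between doxorubicin and control granulosa cells, 6.23, was 5.85 from the cells' medians, 4.50 with the 6 doxorubicin libraries at or under 10000 CPM of oocyte markers, and 3.22 with the libraries whose own markers were higher. The latter gave 4.81 in place of 5.18 for control oocytes over control granulosa cells. For doxorubicin over control oocytes, -0.04 became -0.15 with an equal-weight mean and -0.75 from the cells' medians. Without doxorubicin oocytes 9, 11 and 12 it stayed at -0.04, while Fbxw15 went from -0.04 to 0.16. The median log2 of measured over expected level in doxorubicin granulosa cells, 3.22, was 3.51 with own markers higher, 3.08 from the cells' medians, 2.92 with control oocytes as the reference, 3.09 with the share from the marker median, 3.40 without Gdf9, 3.59 from zona genes alone, 3.125 without zona genes, 3.45 without the 5 most deviating markers, and 0.80 with the single highest oocyte as the reference. The last 2 and the limit of 10000 CPM were chosen after seeing the data. In control granulosa cells, -1.15 became -0.71 from zona genes alone, -2.96 with the single highest oocyte, and 0.090 with own markers higher, where Gm44087 likewise turned to 0.090. The cause was not tested.

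With 1 cell left out, these medians ranged from 5.78 to 6.79, from 5.02 to 5.70, from -0.29 to -0.0056, from 3.06 to 3.44 and from -1.70 to -0.53. For Mvp the measured over expected value of 0.23 became -0.29 without doxorubicin granulosa cell 4 and -0.94 from the cells' medians, so its sign is not settled. Its granulosa contrast was 4.44 without that cell and 7.14 without control granulosa cell 15. The contrast of Omt2b rose to 7.54 without control granulosa cell 11, which supplied 76.7% of its control counts.

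With no filter on low genes, 4919 genes in place of 2511 were at least 2-fold higher and 5157 in place of 2440 lower in doxorubicin granulosa cells, 8596 in place of 3590 higher in control oocytes than control granulosa cells, 2875 in place of 1294 higher in both, and 5850 in place of 3509 higher in doxorubicin granulosa cells than doxorubicin oocytes. Between the oocyte groups 4497 in place of 701 were higher and 3266 in place of 272 lower. More genes are counted without the filter by construction. The 13 genes with the shared stretch that were higher became 5 with own markers higher, 8 at or under 10000 CPM, and 21 with a stretch of at least 300 bases, and 12 to 13 with 1 cell left out. In control granulosa cells each gene had from 146 to 1245 counts in all.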
